A study of Homo sapiens with 6 samples.

Results

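NRF2, encoded by NFE2L2, is the transcription factor that switches on defence against oxidants and electrophiles. The genes described here are NFE2L2 itself, 3 genes that regulate it or share its binding sites (KEAP1, BACH1 and MAFG) and 6 of its known target genes (NQO1, HMOX1, TXNRD1, SRXN1, OSGIN1 and ME1). They are read by probe sets, each a group of short array probes summarised as 1 value. All probe sets whose annotation gives exactly 1 gene symbol, and that symbol is 1 of these 10, were used. This makes 21 probe sets of 49293 and 10 genes of 18132. The 10 genes were chosen on pathway membership with the shifts of HMOX1 and NQO1 in this same comparison already known, so their differences are a description and support nothing by themselves.

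The cells were BCPAP, an established human line of papillary thyroid carcinoma origin, grown in RPMI-1640 with fetal bovine serum. One group of 3 arrays held cells transduced with lentivirus carrying a short hairpin RNA against CSF2 (shCSF2), which encodes the cytokine GM-CSF, and the other group of 3 held cells given a non-targeting hairpin (shCtrl). Both groups went through puromycin selection for 7 days, begun 48 hours after transduction. Both rest on 1 cell line, and how many hairpins were used is not stated.

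The median log2 value of an array was 5.77 at the lowest and 5.79 at the highest. No probe set was annotated with CSF2, alone or with another gene, so the targeted transcript was not analysed here and could not be set against the labels. The thyroid factor genes PAX8 and NKX2-1 and the keratin genes KRT7, KRT8 and KRT18 were at or above the 82.8th percentile of all probe sets. Thyroglobulin (TG), the TSH receptor gene TSHR, the thyroid genes SLC5A5 and DIO1, KRT19 and the E-cadherin gene CDH1 were at or below the 31.7th. The thyroid gene FOXE1 and the epithelial gene EPCAM lay between, at the 54.8th and 48.5th. Leukocyte markers ranged from the 3.05th (PTPRC) to the 67.8th (CD68), and endothelial markers from the 47.0th (VWF) to the 62.1st (CDH5). Fibroblast markers ranged from the 22.9th (DCN) to the 40.0th (PDGFRA). Of the 7 measured thyroid markers 1 passed limma's test between the groups, NKX2-1, which was lower in shCSF2 arrays (log2 fold change -0.42 ± 0.04, both probe sets), and of the 6 epithelial markers 1 passed, KRT8, also lower (-0.26 ± 0.05, all 8 probe sets). Their part in the results was not tested. Of 12 listed leukocyte, endothelial and fibroblast markers, 0 passed that test and 1, the fibroblast gene LUM (log2 fold change -0.50 ± 0.20), was at an unadjusted p under 0.05. The mean log2 value of the 5 leukocyte markers ranged from 4.09 to 4.26 in shCSF2 and from 4.15 to 4.19 in shCtrl arrays. For the 3 endothelial markers it ranged from 6.02 to 6.12 in shCSF2 and from 6.13 to 6.24 in shCtrl arrays, and for the 4 fibroblast markers from 4.46 to 4.60 in shCSF2 and from 4.61 to 4.80 in shCtrl arrays. The last pair of marker lists thus lay slightly lower in shCSF2 arrays without overlap. So did the 7 thyroid markers, from 5.62 to 5.68 in shCSF2 and from 5.69 to 5.77 in shCtrl arrays, while the epithelial markers overlapped. Taken gene by gene, the groups did not overlap for 46.7% of all genes. The part of these marker lists in the results was not tested. In bulk RNA, a smaller share of cells carrying a transcript and less of it in each cell cannot be told apart.

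Under resting conditions KEAP1, an adaptor of the CUL3 ubiquitin ligase, holds NRF2 and sends it to the proteasome, and oxidants or electrophiles that modify cysteines of KEAP1 let newly made NRF2 reach the nucleus. There it pairs with a small MAF protein such as MAFG and binds antioxidant response elements, while BACH1, which haem releases from DNA, pairs with the same MAF proteins and represses many of the same sites. Much of this control acts on the protein, which an array of transcripts does not read. Thyroid follicular cells make hydrogen peroxide for hormone synthesis, and these defences are part of how they withstand it.

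The DNA around the starts of these genes shows where a site of this kind lies close by. RefSeq sequences (GRCh38.p14) running from 250 bases before to 50 bases after a start were at hand for 9 of the 10 genes, in 14 windows because 4 genes have several starts. HMOX1 was not among them. The core of the antioxidant response element, TGACNNNGC on either strand, occurred in 4 of the 14 windows, belonging to KEAP1, TXNRD1 and ME1, against 13.3% of 35116 windows of the same length. The windows shown are those 4 and that of NQO1, which holds no match and belongs to the gene with the largest difference among the 9. They lie at chr19:10502722-10503021 on the minus strand (KEAP1), chr12:104215529-104215828 and chr12:104286782-104287081 on the plus strand (TXNRD1), chr6:83431002-83431301 on the minus strand (ME1) and chr16:69726511-69726810 on the minus strand (NQO1). Each is written 5′ to 3′ along the gene, with the matches to the core in capitals.
KEAP1: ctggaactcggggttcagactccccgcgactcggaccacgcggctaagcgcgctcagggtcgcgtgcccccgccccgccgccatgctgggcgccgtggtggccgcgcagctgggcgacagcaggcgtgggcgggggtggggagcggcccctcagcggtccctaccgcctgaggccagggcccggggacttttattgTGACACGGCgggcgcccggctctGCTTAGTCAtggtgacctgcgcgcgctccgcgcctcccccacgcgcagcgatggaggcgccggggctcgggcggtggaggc
TXNRD1 upstream start: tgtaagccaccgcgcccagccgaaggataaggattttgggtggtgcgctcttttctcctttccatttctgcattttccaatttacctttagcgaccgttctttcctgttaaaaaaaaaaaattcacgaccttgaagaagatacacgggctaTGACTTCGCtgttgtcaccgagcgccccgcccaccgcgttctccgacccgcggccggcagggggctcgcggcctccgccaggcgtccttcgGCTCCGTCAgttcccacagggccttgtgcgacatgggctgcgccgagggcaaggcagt
TXNRD1 downstream start: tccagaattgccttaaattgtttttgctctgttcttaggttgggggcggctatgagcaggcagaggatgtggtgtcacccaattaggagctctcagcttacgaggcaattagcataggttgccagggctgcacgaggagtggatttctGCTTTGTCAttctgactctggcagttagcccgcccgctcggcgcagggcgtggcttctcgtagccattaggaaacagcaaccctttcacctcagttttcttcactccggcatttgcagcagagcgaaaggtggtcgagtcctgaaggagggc
ME1: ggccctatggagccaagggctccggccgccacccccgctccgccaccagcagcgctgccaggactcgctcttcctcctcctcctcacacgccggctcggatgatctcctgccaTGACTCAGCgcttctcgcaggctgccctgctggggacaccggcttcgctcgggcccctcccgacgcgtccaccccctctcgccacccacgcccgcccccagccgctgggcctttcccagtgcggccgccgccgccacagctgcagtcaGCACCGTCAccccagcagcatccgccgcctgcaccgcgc
NQO1: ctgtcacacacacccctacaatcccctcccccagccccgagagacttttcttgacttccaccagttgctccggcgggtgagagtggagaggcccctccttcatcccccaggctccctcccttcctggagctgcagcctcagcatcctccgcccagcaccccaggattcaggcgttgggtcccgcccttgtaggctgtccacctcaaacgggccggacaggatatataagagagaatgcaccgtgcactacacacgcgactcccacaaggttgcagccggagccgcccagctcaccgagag

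The ME1 window holds a match past the start, on the opposite strand, printed as GCACCGTCA. Its other match begins 137 bases before the start and reads TGACTCAGC, which also contains the AP-1 type element TGACTCA. The full 9 letters occurred in 0.561% of all windows and the shorter TGACTCA in 4.95%, both on either strand. TGACTCA was also present in windows of OSGIN1, where it begins 97 bases before the start, and BACH1, where it begins 48 bases before. These are matches of letters in short windows, and sites farther away were not searched.

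Transcripts of NFE2L2, of its inhibitor KEAP1 and of 5 of the 6 targets were higher in shCSF2 cells, by 1.22-fold to 1.82-fold, while BACH1, MAFG and the target ME1 did not pass the test. HMOX1 and NQO1 differed most, followed by OSGIN1 and NFE2L2. A gene is said to have passed where limma's adjusted p, taken over all 49293 probe sets, was under 0.05, and a gene is represented by its probe set with the highest mean. Of the 10 genes, 7 passed as higher and 0 as lower (0 lower also at an unadjusted p under 0.05), in a comparison where 15.8% of all 18132 genes passed as higher and 14.6% as lower. By probe set, 14 of 21 passed as higher and 0 as lower, against 15.3% and 13.8% of all probe sets. The arrays of the groups did not overlap for the same 7 genes, and did not overlap for 46.7% of all genes. The median log2 fold change (shCSF2 minus shCtrl) was 0.36 over the 10 genes and -0.03 over all genes. Since these genes were picked with this comparison known, nothing is read from those counts.

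**Figure D1:**
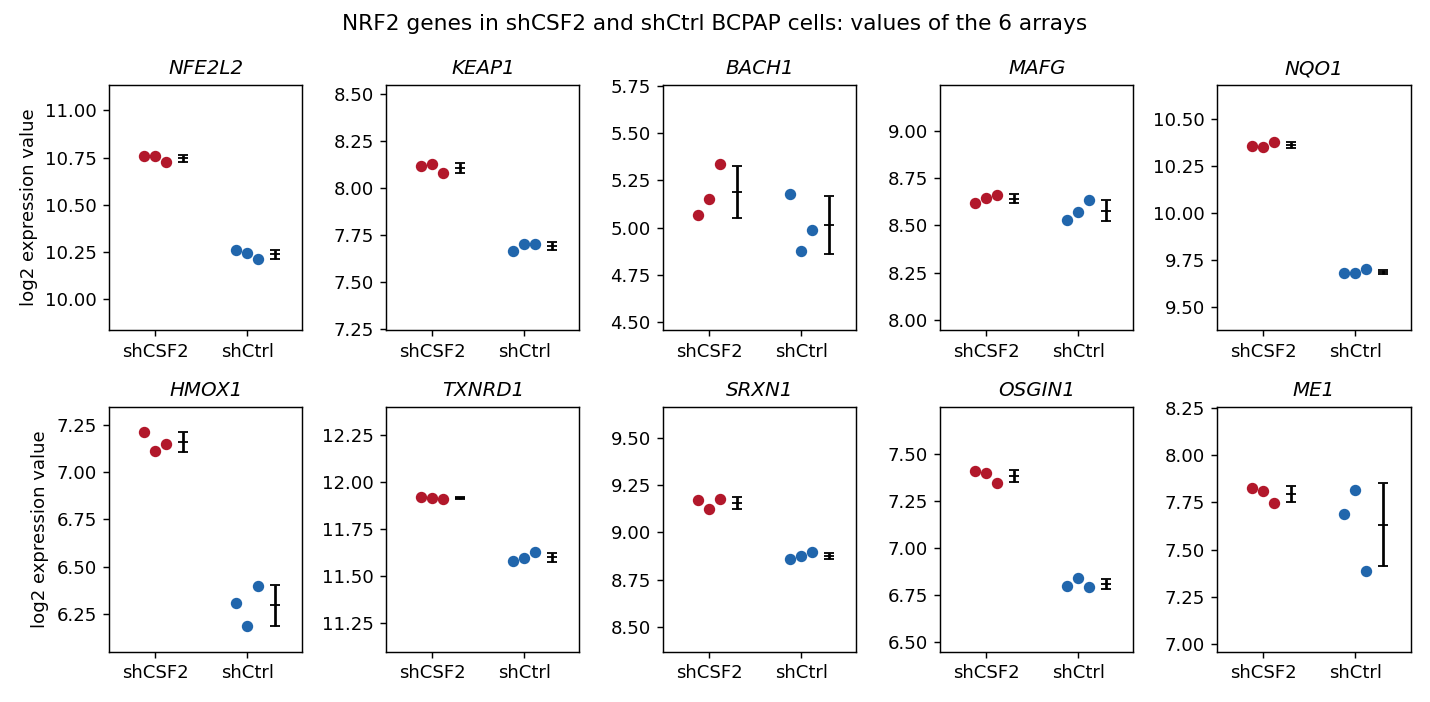
Log2 expression value (vertical axis, the same span in every panel) of each of the 10 genes by its brightest probe set, in shCSF2 arrays (red) and shCtrl arrays (blue), with the mean and SD of 3 arrays in black. The red points lie above the blue in NFE2L2, KEAP1, NQO1, HMOX1, TXNRD1, SRXN1 and OSGIN1, and overlap them in BACH1, MAFG and ME1.

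NFE2L2 was among the brighter transcripts, near the 97.5th percentile of all probe sets. Its log2 values were 10.76, 10.76 and 10.72 in shCSF2 arrays, against 10.26, 10.24 and 10.21 in shCtrl arrays. All 3 shCSF2 arrays were high, the spread within each group was under 0.05, and the groups were far from overlapping. This came to 1.42-fold (log2 fold change 0.51 ± 0.04, moderated SE, n = 3 arrays per group). The other NFE2L2 probe set gave 0.45 ± 0.04, so both probe sets showed a rise of similar size.

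KEAP1, which marks NRF2 for destruction, moved the same way as NFE2L2. Its log2 values were 8.11, 8.13 and 8.08 in shCSF2 arrays, against 7.66, 7.70 and 7.70 in shCtrl arrays. Again every shCSF2 array stood above every shCtrl array. The difference was 1.33-fold (log2 fold change 0.42 ± 0.04), from the 1 probe set of this gene.

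BACH1, the haem-sensitive repressor, has 1 probe set of its own, which was dim, near the 39.4th percentile. It read 5.07, 5.15 and 5.34 in shCSF2 arrays and 5.18, 4.87 and 4.99 in shCtrl arrays. The groups overlapped, with shCtrl replicate 1 above 2 of the shCSF2 arrays, and the log2 fold change was 0.17 ± 0.10, with a 95% interval of -0.05 to 0.40. It was 0.10 without shCSF2 replicate 3 and 0.11 without shCtrl replicate 2. Another 3 probe sets are annotated with BACH1 together with the RNA gene GRIK1-AS2 and are no members here. The brightest of them averaged 10.80 ± 0.03 in shCSF2 and 10.82 ± 0.06 in shCtrl arrays (SD, n = 3), a log2 fold change of -0.03 ± 0.04, and the other pair gave -0.02 ± 0.04 and 0.01 ± 0.08. None of the 4 passed, and the dim probe set and the bright one differ in sign.

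MAFG, a small MAF partner of NRF2, was read by 4 probe sets, of which 2 held identical values in all 6 arrays and so count as 1 reading. The brightest gave 8.62, 8.64 and 8.66 in shCSF2 arrays and 8.53, 8.57 and 8.64 in shCtrl arrays. shCtrl replicate 3 lay within the shCSF2 values, so the groups overlapped. The log2 fold change was 0.06 ± 0.04, with a 95% interval of -0.04 to 0.17 (0.04 without shCtrl replicate 1), and the others gave -0.06 ± 0.04 and -0.03 ± 0.05.

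**Figure D2:**
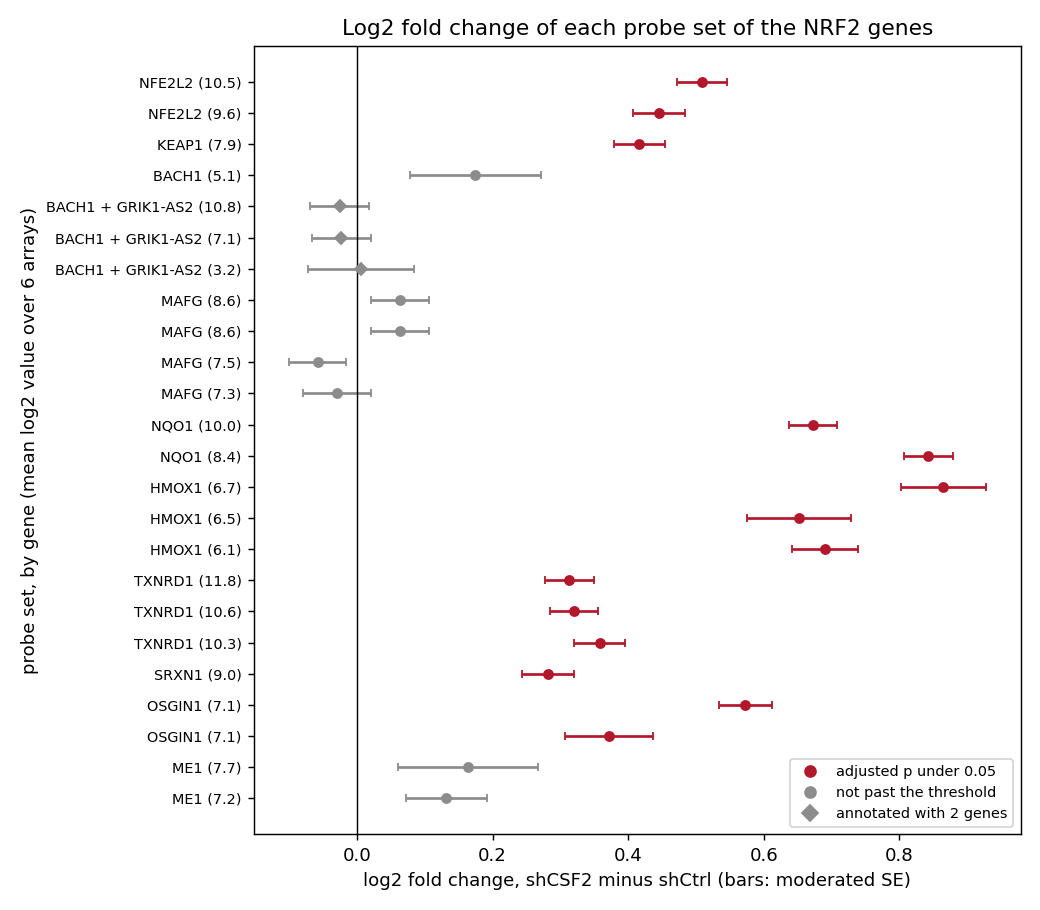
Log2 fold change (shCSF2 minus shCtrl, horizontal axis, bars are moderated SE) of each of the 21 probe sets and, as diamonds, the 3 annotated with BACH1 and GRIK1-AS2, with the mean log2 value in brackets. Every probe set of NFE2L2, KEAP1, NQO1, HMOX1, TXNRD1, SRXN1 and OSGIN1 passed as higher (red), while those of MAFG, BACH1 and ME1 did not pass. Those of MAFG and the diamonds lie near 0, and those of BACH1 (0.17) and ME1 (0.16 and 0.13) lie above it.

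HMOX1, haem oxygenase 1, breaks haem down to biliverdin, iron and carbon monoxide, and had the largest difference of the 10. Its log2 values were 7.21, 7.11 and 7.15 in shCSF2 arrays, against 6.30, 6.18 and 6.40 in shCtrl arrays. The lowest shCSF2 array was still well above the highest shCtrl array. HMOX1 was 1.82-fold higher (log2 fold change 0.86 ± 0.06). Its other probe sets gave smaller values, 0.69 ± 0.05 and 0.65 ± 0.08, and both passed.

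NQO1, a quinone reductase that keeps quinones from cycling into radicals, was bright and tight within groups. It read 10.36, 10.35 and 10.38 in shCSF2 arrays, against 9.68, 9.68 and 9.70 in shCtrl arrays. The groups stood apart by many times their spread, 1.59-fold (log2 fold change 0.67 ± 0.04). The second NQO1 probe set gave a larger difference, 0.84 ± 0.04, with 8.78 ± 0.01 in shCSF2 and 7.94 ± 0.03 in shCtrl arrays (mean log2 value ± SD, n = 3).

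OSGIN1, an oxidant-induced growth inhibitor gene, had log2 values of 7.41, 7.39 and 7.35 in shCSF2 arrays, against 6.80, 6.84 and 6.79 in shCtrl arrays. All shCSF2 arrays were higher, by 1.49-fold on average (log2 fold change 0.57 ± 0.04). Its other probe set gave 0.37 ± 0.06 at nearly the same brightness, and its shCtrl arrays spread more (SD 0.11) than its shCSF2 arrays (SD 0.06). Both probe sets passed.

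TXNRD1, the cytosolic thioredoxin reductase, was the brightest of the 10, near the 99.2nd percentile. Its log2 values were 11.92, 11.92 and 11.91 in shCSF2 arrays, against 11.58, 11.60 and 11.63 in shCtrl arrays. The groups did not overlap, and the difference was modest at 1.24-fold (log2 fold change 0.31 ± 0.04). Its 3 probe sets gave close values, the others 0.32 ± 0.04 and 0.36 ± 0.04. SRXN1, sulfiredoxin, which repairs overoxidised peroxiredoxins, had 9.17, 9.12 and 9.18 in shCSF2 arrays, against 8.86, 8.87 and 8.89 in shCtrl arrays. This was the smallest difference among the genes that passed, 1.22-fold (log2 fold change 0.28 ± 0.04), from 1 probe set.

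ME1, the cytosolic malic enzyme that makes NADPH, did not pass. Its log2 values were 7.83, 7.81 and 7.75 in shCSF2 arrays, against 7.69, 7.82 and 7.39 in shCtrl arrays. The shCSF2 arrays lay together while shCtrl replicate 3 was low and shCtrl replicate 2 as high as the shCSF2 arrays. The log2 fold change was 0.16 ± 0.10, with a 95% interval of -0.08 to 0.41. It was 0.04 without shCtrl replicate 3 and 0.26 without shCtrl replicate 2. The other ME1 probe set gave 0.13 ± 0.06 and also overlapped. Over the 14 probe sets of the 10 genes that passed, the limma adjusted p ranged from 3.23e-05 for NQO1 to 0.0052 for OSGIN1.

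**Figure D3:**
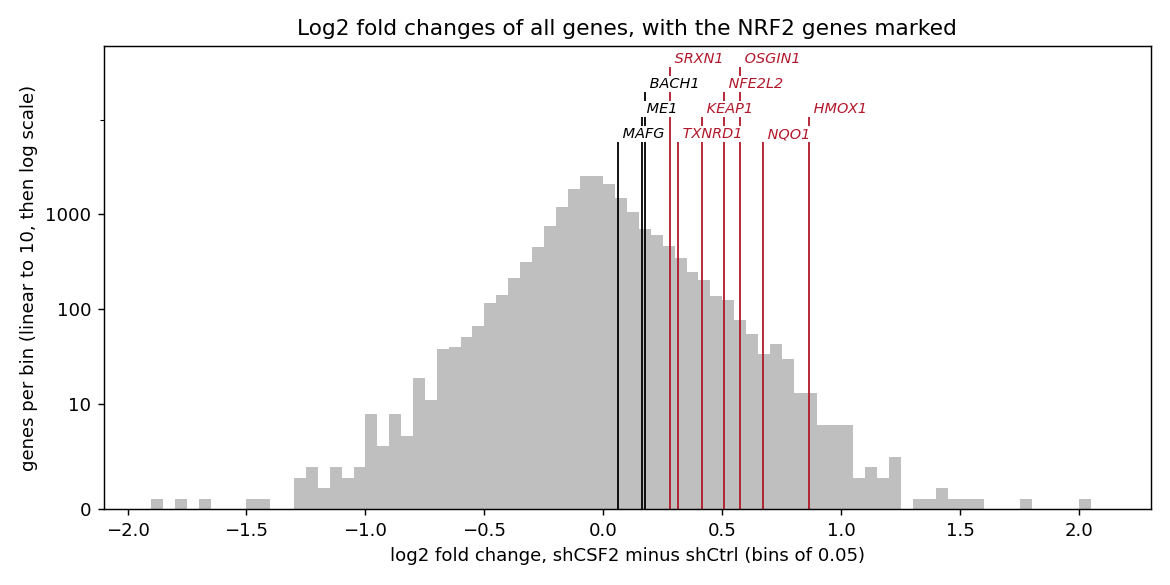
Number of genes (vertical axis, linear to 10 and then logarithmic) by log2 fold change (shCSF2 minus shCtrl, horizontal axis) for all 18132 genes, with lines at the 10 genes, red where they passed. HMOX1, at 0.86, lies in the right tail, while MAFG, at 0.06, lies near the centre.

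A measure of RNA quality also differed slightly between the groups. The log2 difference between the 3′ and 5′ control probe sets of GAPDH averaged -0.0094 in shCSF2 and -0.034 in shCtrl arrays, without overlap (exact two-sided permutation p = 0.1, the smallest that 3 arrays against 3 allow). The same difference for ACTB averaged 0.61 in shCSF2 and 0.59 in shCtrl arrays and overlapped (exact permutation p = 0.6). Its part in the values above was not tested.

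Relatives of these genes give the families' wider picture. Of 11 measured, 4 passed as higher and 1 as lower, against 15.8% and 14.6% of all genes, with a median of 0.08 for the log2 fold change. The lower count was 2 without shCSF2 replicate 2. MAFF, another small MAF gene, had log2 values of 8.25, 8.24 and 8.16 in shCSF2 arrays, against 7.45, 7.44 and 7.49 in shCtrl arrays. The groups lay wide apart, and MAFF rose 1.69-fold (log2 fold change 0.76 ± 0.04), although 0.53 with its 2 probe sets averaged. NFE2L1, a factor known for inducing proteasome genes, rose by 0.36 ± 0.04, with all 6 of its probe sets higher. NFE2L3, from the same cap'n'collar family, fell by 0.35 on the log2 scale (SE 0.04), with 7.51, 7.47 and 7.44 in shCSF2 arrays, against 7.83, 7.84 and 7.80 in shCtrl arrays. The quinone reductase relative NQO2 rose by 0.39 ± 0.04.

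Other genes of the NRF2 target programme split. Of 33 measured, 10 passed as higher and 2 as lower, against 15.8% and 14.6% of all genes, and the median log2 fold change was -0.0018, against -0.03 over all genes. SLC7A11, which imports cystine, averaged 9.60 ± 0.04 in shCSF2 and 8.15 ± 0.06 in shCtrl arrays (mean log2 value ± SD, n = 3), 2.72-fold higher. Its log2 fold change was 1.44, and 1.17 with its 3 probe sets averaged, all of which passed as higher. GCLM and GCLC, the subunits of the enzyme that starts glutathione synthesis, rose 2.09-fold and 1.41-fold. AKR1C1, an aldo-keto reductase, rose 1.52-fold, with the caution that transcripts of its near-identical relatives can bind the same probes. The count of lower targets was 1 without any 1 of the shCtrl arrays, each of which cost ABCC1, a drug efflux pump gene chosen after its values were seen, its call.

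A further list held genes tied to the degradation of NRF2 or to its activity, helpers and repressors alike. Of its 17 measured genes, 5 passed as higher and 0 as lower (1 lower at an unadjusted p under 0.05 in limma), with a median log2 fold change of 0.05. Over all genes these shares were 15.8% and 14.6%. GSK3B, a kinase that marks NRF2 for a second ligase, rose by 0.28 ± 0.05, by 1 of its 2 probe sets, and by 0.10 with both averaged. SQSTM1, an autophagy adaptor that binds KEAP1 and is itself an NRF2 target, was very bright (11.72 ± 0.01 in shCSF2 and 11.44 ± 0.02 in shCtrl arrays) and rose by 0.28 ± 0.04. RXRA, a nuclear receptor reported to repress NRF2, rose by 0.25 ± 0.05, also by 1 of 2 probe sets (0.07 averaged). EP300, an acetyltransferase coactivator, rose by 0.20 ± 0.06. With the replicate number as a block, 3 of the 17 passed as higher, and 3 did in each of the fits without shCSF2 replicate 1, 2 or 3 or without shCtrl replicate 1 or 2. EP300 lost its call in those 5 fits without 1 array.

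A separate list held enzymes that remove peroxide or superoxide or reduce disulfides or methionine sulfoxide, and TXNIP, an inhibitor of thioredoxin. In this list, more of the genes that passed were lower than higher. Other enzymes of this kind, among them TXNRD1, SRXN1, PRDX1 and GSR, are counted elsewhere, so the split is that of this list alone. Of 22 measured, 2 passed as higher and 9 as lower, against 15.8% and 14.6% of all genes, with a median log2 fold change of -0.08. MSRB3, a methionine sulfoxide reductase of the endoplasmic reticulum and mitochondria, had 8.08, 8.08 and 8.15 in shCSF2 arrays, against 8.78, 8.72 and 8.77 in shCtrl arrays. It fell by 0.65 on the log2 scale (SE 0.04), with all 4 probe sets lower. GPX3, a secreted glutathione peroxidase, fell by 0.36 (SE 0.05). MSRB2, the mitochondrial relative of MSRB3, fell by 0.28 (SE 0.08), but by 0.01 with its 2 probe sets averaged, and its call was lost in 5 of the 6 fits without 1 array (all but that without shCSF2 replicate 2). GLRX2, a mitochondrial glutaredoxin, rose by 0.37 ± 0.04. The other gene that passed as higher was TXNIP, named after its values were seen, at 0.25 ± 0.04.

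**Figure D4:**
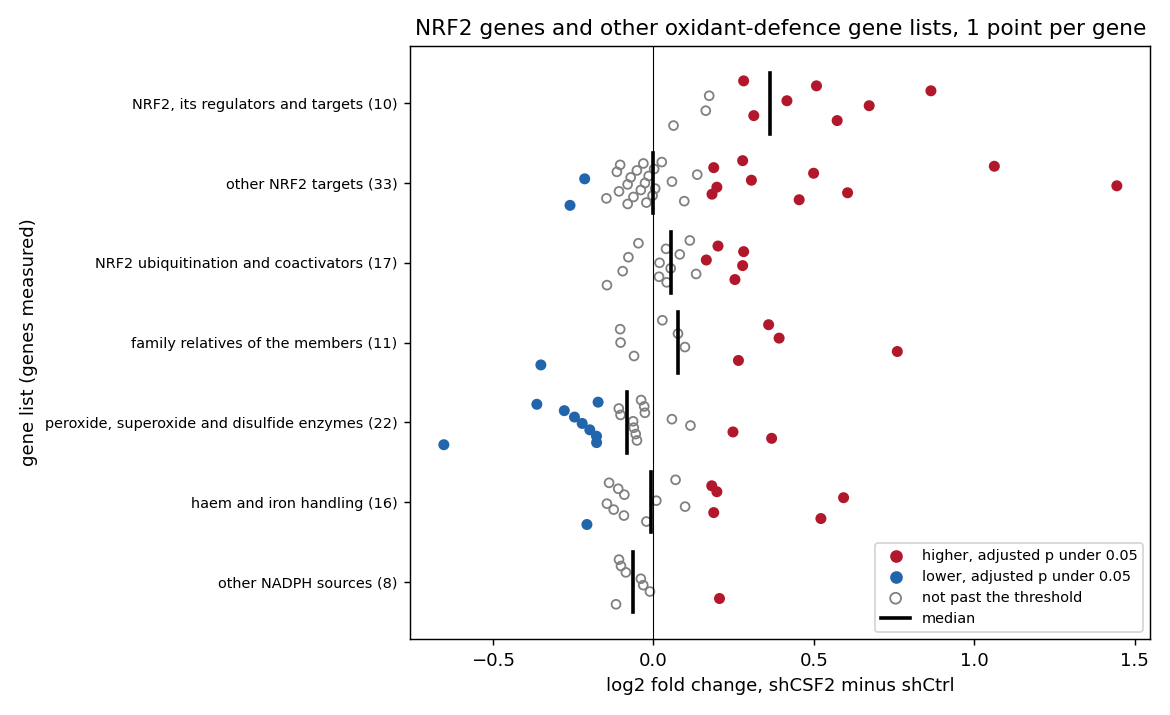
Log2 fold change (shCSF2 minus shCtrl, horizontal axis) of each gene in the 10 genes (top) and 6 lists, filled red where higher and blue where lower past the threshold, with black lines at the medians. The peroxide, superoxide and disulfide list holds 9 of the 13 blue genes, and the other target list holds 10 red genes beside a median near 0.

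Genes of haem and iron handling, the setting of HMOX1, gave 5 higher and 1 lower of 16 measured, against 15.8% and 14.6% of all genes, with a median of -0.0056. The lower count was 2 without shCtrl replicate 1. ABCB10, a mitochondrial transporter linked to haem synthesis, rose by 0.59 ± 0.07, with 6.77, 6.91 and 6.80 in shCSF2 arrays, against 6.28, 6.11 and 6.30 in shCtrl arrays. FLVCR1, described as a haem exporter, rose by 0.52 ± 0.04 and had all 3 probe sets higher. SLC48A1, a haem importer of lysosomes, fell by 0.21 (SE 0.05) by 1 of 4 probe sets, with -0.10 for all averaged. FECH, which inserts iron into haem, rose by 0.20 ± 0.04, also by 1 of 4 (0.08 averaged). Of 8 genes listed as other NADPH sources, 1 passed as higher and 0 as lower (1 lower at an unadjusted p under 0.05 in limma), with a median of -0.06. These shares lie at or below those over all genes, 15.8% and 14.6%. The 1 was NADK2, the mitochondrial NAD kinase, at 0.21 ± 0.04, by 2 of its 6 probe sets (0.13 averaged). NAD kinases, here NADK2 and NADK, make NADP and not NADPH itself. Without shCSF2 replicate 2, 1 of the 8 passed as lower. The lists share SQSTM1, FTL, FECH, BLVRB and PGD.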

How the data were processed

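Total RNA (200 ng per sample) was labelled and hybridised to PrimeView arrays, whose probes lie toward the 3′ end of transcripts. The authors deposited log2 values, with 1 summary of each probe set in each array. Per the submitters' processing notes, RMA, oligo and limma were used, without versions or roles. RMA compresses differences at low signal. All 6 columns were mapped to samples by accession, and groups came from the sample titles.

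The 102 control probe sets were left out of the fit. Of the other 49293, 44988 had 1 gene symbol in the platform annotation, 1832 had several and 2473 were not listed. Symbols were checked through gene identifiers against RefSeq (GRCh38.p14), where 0 changed. Differences (shCSF2 minus shCtrl) were fitted in R 4.3.3 with limma 3.58.1 (lmFit, then eBayes), without a block. Benjamini-Hochberg adjustment ran over the 49293 probe sets, with a threshold of 0.05. The fit was tested on simulated data. Figures were drawn with matplotlib 3.10.9.

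The members and lists were chosen with earlier results of these data known. From each list the text names the 4 passing genes with the largest log2 fold change in size, or all that passed where fewer did. Of the cell markers, only some are named. Alternatives were 2 filters on dim probe sets, 3 normalisations, weights per array, robust estimation with a variance trend, a replicate block, 3 gene-level fits and leaving out each array. Whether replicates came from separate cultures is known only from the label "biological replicate". The 3 same-numbered pairs had correlations of 0.03 to 0.05 in their deviations from the group means. Pairs with different numbers were not compared, so whether the numbers pair the arrays was not tested. The number of arrays limits precision.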

Additional observations from a re-analysis of the deposited data

How the results depend on the processing

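Under 17 alternative settings, 7 of the 10 genes passed as higher and 0 as lower every time, replicate block included, and 14 of their probe sets passed as higher in each of the 14 that kept probe sets apart. Log2 fold changes ranged from 0.74 to 0.92 for HMOX1, from 0.66 to 0.84 for NQO1, from 0.48 to 0.52 for NFE2L2 and from 0.39 to 0.43 for KEAP1. MAFG was -0.029 by its most variable probe set, and BACH1 was -0.025 by the probe set shared with GRIK1-AS2, a setting chosen after seeing the data. Neither passed. The BACH1 setting changes the probe set alone, while the MAFG setting also fits and adjusts over the 18132 genes. BACH1 had no value when probe sets below the median were left out. Of genes in the 6 lists, 24 passed as higher and 13 as lower. The lower count was 21 with either filter on dim probe sets, 22 with trend and robust estimation and 20 with probe sets averaged. Within lists, lower counts reached 5 for the other NRF2 targets (trend and robust), against 2, 4 for haem and iron handling (either filter), against 1, 3 for NRF2 ubiquitination and coactivators (probe sets averaged), against 0, 2 for other NADPH sources (trend and robust), against 0, and 2 for the family relatives (probe sets averaged), against 1. For the peroxide, superoxide and disulfide list the count was 11 under either filter and under trend and robust, against 9. For the same list it was 8 with the replicate block and from 6 to 8 without 1 array. The filters test fewer probe sets, and for the others the cause was not tested. Without 1 array, counts ranged from 21 to 24 higher and from 9 to 13 lower in the lists, and from 6137 to 6563 higher and from 5086 to 5606 lower over all probe sets. ABCC1 (-0.21), 1 of the 2 lower targets, lost its call without any 1 of the shCtrl arrays.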

Other observations

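Several bright targets of NRF2 lay close to 0 and others did not, all named after their values were seen. TXN, thioredoxin and the substrate of TXNRD1, averaged 12.32 ± 0.04 in shCSF2 and 12.29 ± 0.02 in shCtrl arrays (mean log2 value ± SD, n = 3), a log2 fold change of 0.03 ± 0.04 (SE). PRDX1, a peroxiredoxin that SRXN1 repairs, averaged 12.31 ± 0.01 in both groups, with a log2 fold change of -0.0018 ± 0.04. GSR, glutathione reductase, had 0.10 ± 0.04 and did not pass. GSTP1, a glutathione transferase, passed as lower by both probe sets. It fell by 0.26 on the log2 scale (SE 0.04), with 11.03, 11.05 and 11.03 in shCSF2 arrays, against 11.26, 11.31 and 11.32 in shCtrl arrays. FTL, near the 99.8th percentile, rose by 0.19 ± 0.04 and passed as higher by all 8 probe sets.

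Exactly equal values in all 6 arrays were found for 134 of the 49293 probe sets, among them the 2 of MAFG.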
